A study of Mus musculus with 199 samples.

Results

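The libraries described here were made from spheroids of KP1, a mouse small cell lung cancer line of genotype Rb1-/-Trp53-/-. In 28 libraries, called captures, 10 cells each were taken by laser capture microdissection from 8 µm cryosections. The other 20, called pools, are the pool-and-split controls of the same cell number. Together they are 48 of the 199 samples of the series, assigned to the groups by their labels. The labels give explanted small cell lung cancer as the source. All 48 share the genotype and the line, so no value here separates an effect of either deletion. Every library came from poly(A) RNA that went through reverse transcription, poly(A) PCR and Nextera XT tagmentation. The labels do not say how many spheroid cultures, sections or pooled preparations lie behind the libraries, so the p-values measure the spread between these libraries only. The comparison of the groups asks how much more separate groups of 10 cells differ from each other than same-sized libraries split from a common pool do.

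Small cell lung cancer is a neuroendocrine tumour. Its cells carry dense-core secretory granules, and transcription factors such as INSM1 drive their gene programme. RB1 holds back entry into the cell cycle and p53 halts damaged cells, and both are lost in most of these tumours. Glucose enters a cell through transporters such as SLC2A1 and is broken down by the enzymes of glycolysis, many of whose genes the hypoxia-inducible factors HIF1A and EPAS1 activate when oxygen is short.

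Gene counts were deep and even. Total counts ran from 3790354 to 5308801 in captures and from 3662505 to 5831210 in pools, and no pair of libraries within a group was alike enough to be one library deposited again. In CPM, the counts of a gene scaled to a common total of gene counts in each library, the sums of 9 neuroendocrine markers were 607 to 2664 in captures, with a median of 1921, and 1219 to 3174 in pools, with a median of 2250. The granule protein gene Chga had a median of 570 CPM in captures and 607 in pools. The synaptic vesicle gene Syp was the exception, at 0 in 16 of 28 captures and 7 of 20 pools. Markers of other cells were low: 12 hepatocyte markers summed to 0 to 83.6 CPM in captures and 0 to 62.0 in pools, with Alb at 0 in 28 captures and 19 pools. For 13 leukocyte markers the sums were 0 to 138 and 0 to 151 CPM, with Ptprc at 0 throughout, for 6 endothelial markers 0 to 56.2 and 0.817 to 18.1, for 8 fibroblast markers 0 to 21.4 and 0 to 146, and for 6 erythrocyte markers 0 to 31.3 and 0 to 0.426.

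The labels do not say which libraries received the ERCC spike-in RNAs, a set of 92 synthetic transcripts of known amounts, and the counts divided each group into sets. In captures numbered 11 to 19 ERCC transcripts took 0.200% to 1.36% of all counts, and in the other 19 captures 0.0001% to 0.0152%. In pools numbered 9 to 14 they took 1.20% to 1.78%, and in the other 14 pools 0% to 0.0353%. The libraries with ERCC counts therefore form 1 run of consecutive numbers in each group, with a run of libraries before it (10 captures, 8 pools) and a run after it (9 captures, 6 pools). These runs are runs of label numbers found from the counts, not a batch named by the labels. Runs with the same position in the captures and in the pools are compared below, although nothing in the labels ties them together.

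**Figure D1:**
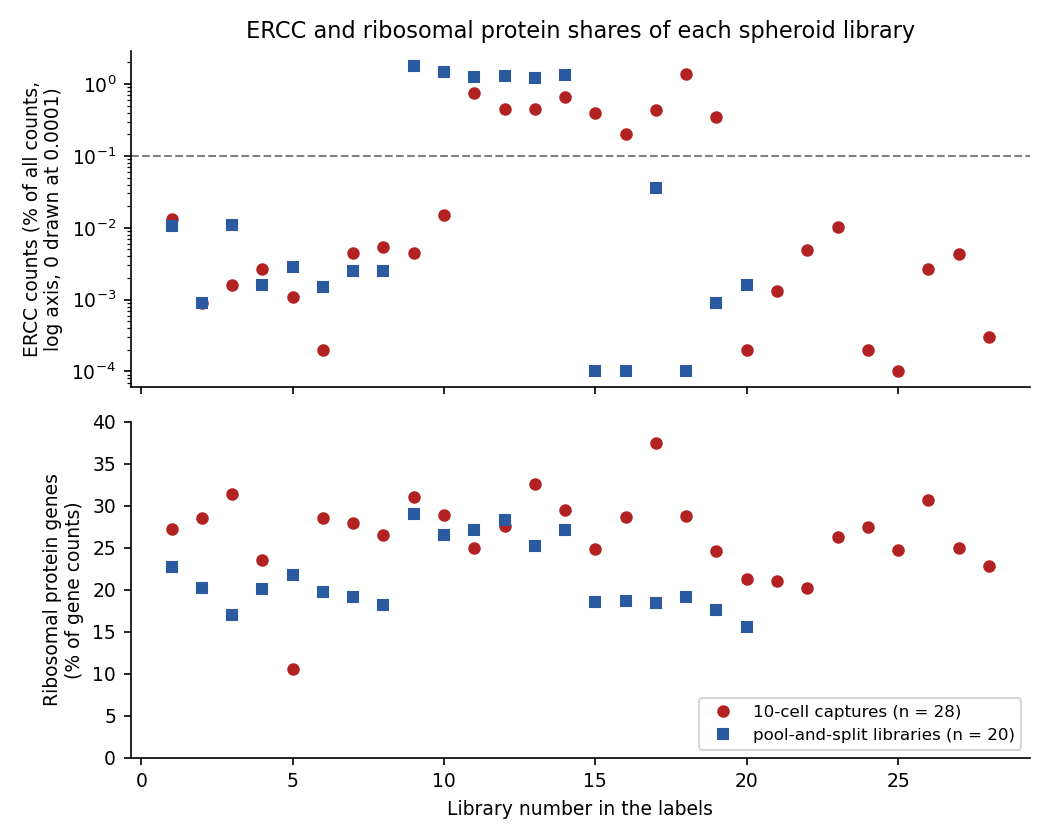
ERCC counts as a percentage of all counts (upper panel, log axis, 0 drawn at 0.0001) and ribosomal protein gene counts as a percentage of gene counts (lower panel) against the library number, for 28 captures and 20 pools. The dashed line at 0.1% separates 9 captures and 6 pools from the rest, and in the lower panel the 6 pools above it lie at 25.2% to 29.0% while the other pools lie at 15.6% to 22.7%.

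A few captures stood apart from the rest. Captures 4, 9 and 23 deviated most from the median capture over abundant genes, by means of 1.28, 1.24 and 1.79 on the log2 scale against a median of 0.720 over all captures. Capture 23 also had the fewest genes detected at a common depth of 3662388 gene counts, 6789, against a median of 9822. Capture 5 had the most, 12981, and the lowest share of ribosomal protein gene counts, 10.6%, while capture 17 had the highest, 37.5%. Values without one or more of these captures are given beside the results they move most.

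Spread among captures was larger than among pools for most abundant genes, but no single gene passed the test, and the test over all 48 libraries passed only when the runs were taken into account. Spread was measured for each gene as the mean absolute deviation of log2(CPM + 1) from its group's median, scaled for group size, and compared with limma over the 8600 genes whose mean reached 5 CPM. Limma called 0 genes with larger spread in captures (0.0%) and 0 with smaller spread (0.0%) at a Benjamini-Hochberg adjusted p under 0.05, and the lowest adjusted p was 0.266. At an unadjusted p under 0.05, 333 genes spread more in captures and 177 less, and at any p 58.8% of the tested genes spread more. Without captures 4, 9 and 23 the counts were 183 and 210, and the share was 50.2%. These captures deviated most, so a lower share follows from the choice. Within single runs the counts with more and less spread were 697 and 71 before the ERCC run, 112 and 197 in it, and 86 and 259 after it. When limma was run on deviations from the group mean, 11 genes were called with larger spread in captures (0.128%) and 14 with smaller spread (0.163%). No other tool was run for spread.

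The excess depended on expression level. Among 1685 genes at 5 to 10 CPM the median deviation was 1.29 in captures and 1.41 in pools, and 39.1% of genes spread more in captures. Among 375 genes at 200 to 500 CPM the medians were 0.665 and 0.526, and 82.1% spread more in captures. Among 280 genes at 500 CPM or more they were 0.425 and 0.358, and 71.8% spread more. When deviations were taken from the median of each group and run, those highest genes had medians of 0.394 and 0.245, and 93.9% spread more in captures. Among 2606 genes at 10 to 25 CPM the median excess was 0.0096 from the group median, with 51.6% spreading more in captures, and 0.0928 from the run median, with 60.9% spreading more. At 5 to 10 CPM the run median gave 1.25 and 1.27, and 50.1% spread more. The level at which captures began to spread more was thus about 25 CPM with the group median and about 10 CPM with the run median.

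**Figure D2:**
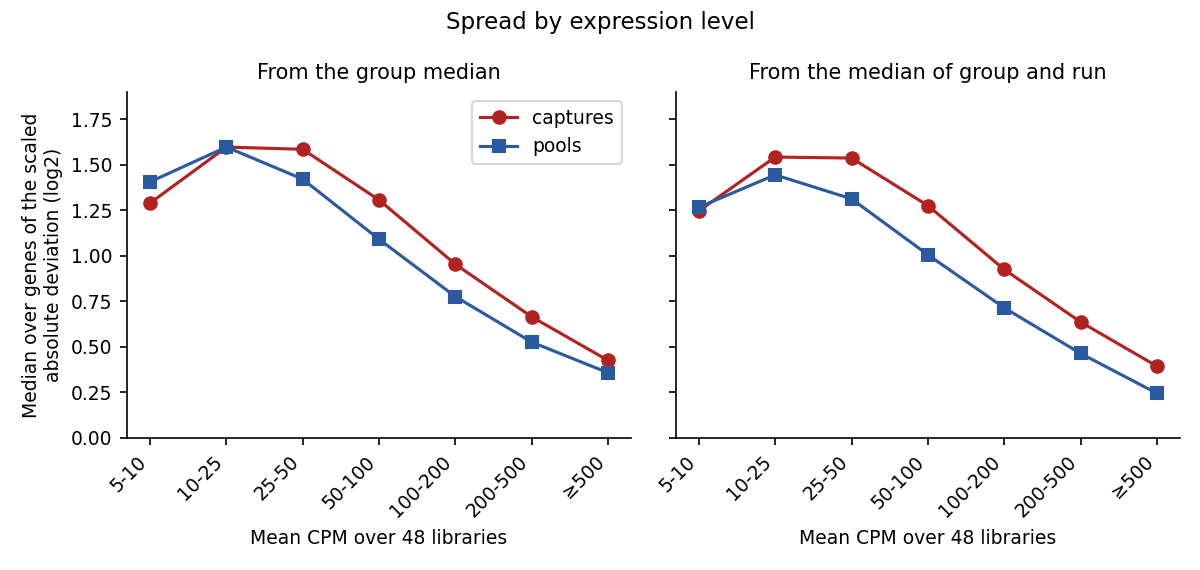
Median over genes of the scaled absolute deviation (log2) for captures and pools in 7 classes of mean CPM, taken from the group median (left) and from the median of group and run (right). The lines meet at 10 to 25 CPM in the left panel, and captures lie above pools in every class from 25 CPM upward in the left panel and from 10 CPM upward in the right.

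Taken over whole libraries, the mean deviation of the 1337 genes with at least 100 CPM was 0.784 ± 0.288 (SD, n = 28) in captures and 0.647 ± 0.176 (n = 20) in pools, a difference of 0.137 that did not pass the threshold (two-sided permutation test, p = 0.0626). Leaving out 1 library at a time gave differences of 0.0983 to 0.150, and the call changed with single libraries: p was 0.0480, 0.0444 and 0.0464 without captures 6, 7 and 24, and 0.0461, 0.0461, 0.0454 and 0.0449 without pools 9, 11, 14 and 18 (permutation test). With deviations from the median of group and run the means were 0.759 ± 0.301 and 0.570 ± 0.136, a difference of 0.190 (p = 0.00622). Without captures 4, 9 and 23 the difference was 0.0584 from the group median (p = 0.254) and 0.108 from the run median (p = 0.0208). These 3 captures had the highest values of this same measure and no pool was left out, so a smaller difference follows from the choice. The call of the test over all libraries thus changed with single libraries that were not picked by value and with how the runs were treated.

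The runs were not alike. Before the ERCC run, captures deviated from their run median by 0.773 ± 0.296 (n = 10) and pools by 0.443 ± 0.108 (n = 8), a difference of 0.330 (exact permutation test, p = 0.00674). In the ERCC run the means were 0.750 ± 0.129 (n = 9) and 0.658 ± 0.0336 (n = 6), with an exact permutation p of 0.119. After it they were 0.753 ± 0.436 (n = 9) and 0.650 ± 0.0980 (n = 6), with an exact permutation p of 0.799, and capture 23 alone was at 1.86. The medians there were 0.535 in captures and 0.647 in pools, and without capture 23 the means were 0.620 and 0.650, a difference of -0.0306. Capture 23 was the highest library of that run, so a lower mean without it follows from the choice, and no test is drawn from it. The captures had nearly the same mean in all 3 runs, and the 8 pools numbered 1 to 8 had the lowest mean of the 3 runs of pools.

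**Figure D3:**
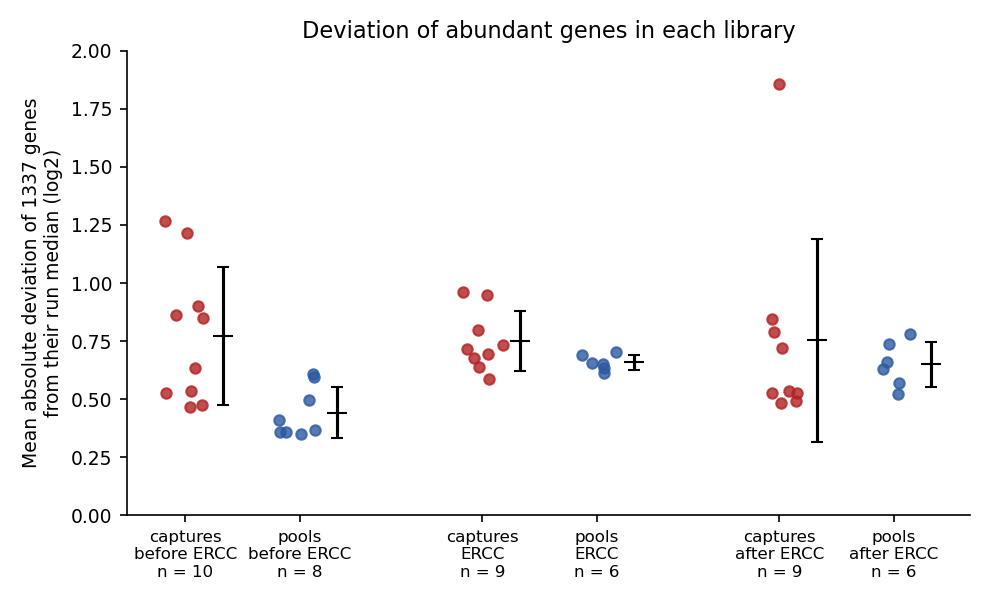
Mean absolute deviation (log2) of 1337 abundant genes from the median of their own run, for each library, with the mean and SD of each run beside the points. The pools before the ERCC run lie at 0.349 to 0.607, and capture 23 lies highest of all libraries at 1.86.

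Of the 1337 abundant genes, 1021 (76.4%) spread more in captures, with a median excess of 0.114 against 0.0611 over all tested genes. The abundant genes with the smallest unadjusted p were chosen after their values were seen, and none passed the adjusted threshold. They include Slc2a1, Pgk1 and the transcription factor gene Sox11, a marker of embryonic neurons. Sox11 (chromosome 12, 27334264 to 27342574 on GRCm38) was at 38.4 CPM in the lowest capture, 173 in the median and 1001 in the highest, and at 169, 308 and 571 in pools. In 14 captures Sox11 lay below every pool and in 1, capture 4, above every pool. Its excess was 0.46 with an SE of 0.18 and an adjusted p of 0.809 in limma.

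Genes of glucose uptake, glycolysis and the hypoxia response had a median excess of spread above that of the tested genes as a whole. Of 31 listed genes 27 were tested, and 24 of these (88.9%) spread more in captures, beside 58.8% of all genes tested and 76.4% of abundant genes. Their median excess was 0.340, against 0.0611 over all genes tested. None of the 27 was called, 5 had an unadjusted p under 0.05 with larger spread in captures, and 0 had one with smaller spread. With TMM-scaled CPM 22 of the 27 spread more in captures, at a median excess of 0.302. The list, like all lists here, was written with earlier results of these data known.

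Slc2a1, the main glucose transporter gene of many tumours (chromosome 4, 119108711 to 119137983), was at 119 CPM in the lowest capture, 512 in the median and 2738 in the highest, and at 611, 752 and 1333 in pools. Of the captures, 17 lay below every pool and 2 above every pool. The excess was 0.51 with an SE of 0.18, an unadjusted p of 0.0061 and an adjusted p of 0.752 in limma. In these libraries of 10 cells, fewer cells expressing a gene and less of its RNA per cell cannot be told apart.

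Pgk1, which encodes phosphoglycerate kinase (chromosome X, 106187100 to 106203699), was at 16.8, 330 and 1615 CPM in the lowest, median and highest capture and at 355, 545 and 1063 in pools. Below every pool lay 15 captures and above every pool 2. The Pgk1 excess was 0.64 with an SE of 0.24 and an adjusted p of 0.787 in limma. Tpi1, triosephosphate isomerase (chromosome 6, 124810586 to 124814296), was at 96.5, 782 and 2465 CPM in captures and at 703, 920 and 1592 in pools, with 11 captures below every pool. Ldha, which encodes the lactate dehydrogenase A subunit (chromosome 7, 46841475 to 46855627), was at 8.82, 205 and 1594 CPM in captures and at 139, 484 and 861 in pools, with 8 captures below every pool and 2 above. All 3 genes reached both lower and higher in captures, and most captures outside the range of the pools lay beneath it.

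Targets further from the pathway itself followed the same description. The mitophagy receptor gene Bnip3 was at 0, 18.8 and 266 CPM in captures and at 4.28, 33.9 and 213 in pools, with an excess of 0.75 and an adjusted p of 0.821 in limma. The oxygen sensor gene Egln1 was at 0, 14.2 and 122 CPM in captures and at 2.72, 23.6 and 95.0 in pools, and its excess was 0.60 with an adjusted p of 0.826 in limma. Both groups overlapped over most of their range. For Gapdh and Pkm, the most abundant members, the gap depended on the runs. Gapdh was at 923, 1848 and 4662 CPM in captures and 1123, 1916 and 3292 in pools, and from the group median the excess of each was 0.01. From the run median the excess was 0.22 for Gapdh and 0.15 for Pkm, with unadjusted p-values of 0.0707 and 0.256 and adjusted ones of 0.854 and 0.872 in limma.

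The abundant members of this list also rose and fell together across captures. Over the 12 members with at least 100 CPM the mean pairwise Pearson correlation of log2(CPM + 1) was 0.442 in captures and 0.0721 in pools, against 0.0427 and 0.0153 over all pairs of abundant genes. Of 66 pairs, 65 were above 0 in captures and 38 in pools. By Spearman correlation the means were 0.387 and 0.0712, and after centring on runs the Pearson means were 0.449 and 0.0034. With TMM-scaled CPM the means without centring were 0.367 in captures and 0.269 in pools, with 63 and 51 of the pairs above 0, and after centring on runs 0.341 and 0.0075. The low correlation in pools over all runs was thus found only with unscaled CPM, and within runs it was found with either scaling. These means are descriptions, since the genes of a library share its depth and preparation.

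**Figure D4:**
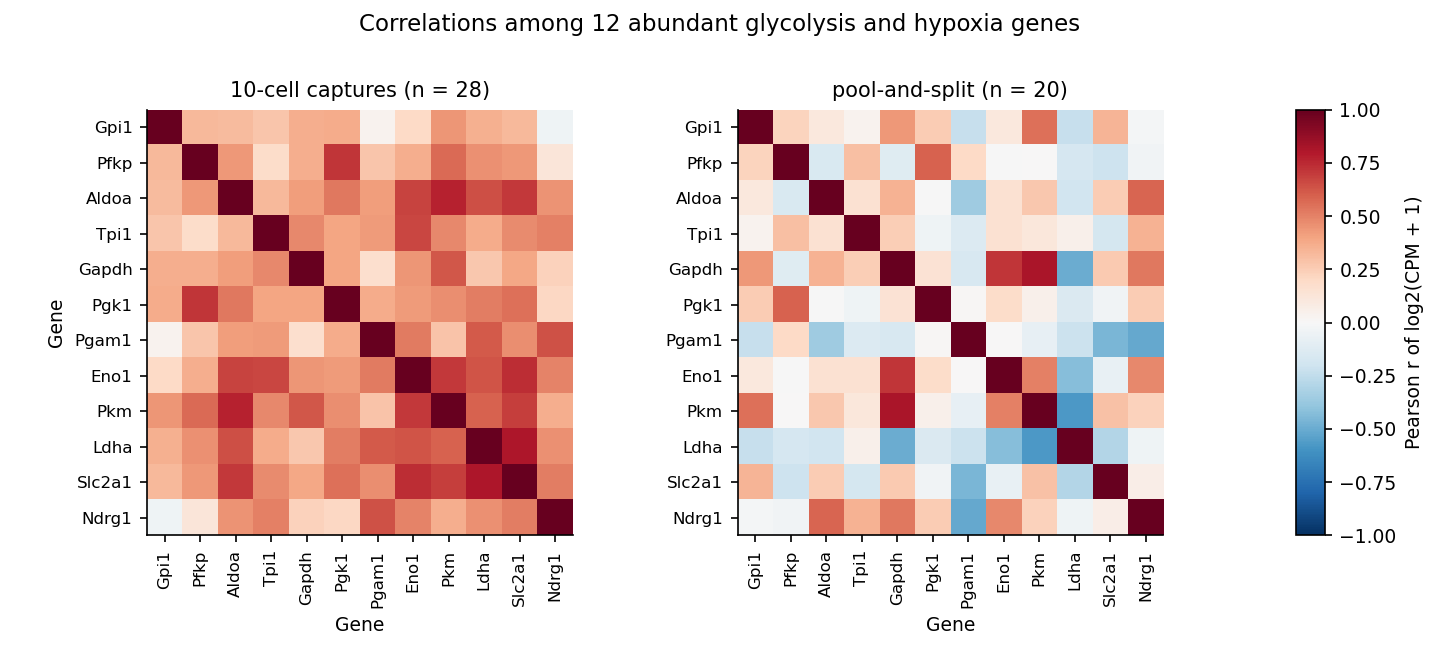
Pearson correlation of log2(CPM + 1) between each pair of 12 abundant glycolysis and hypoxia genes over 28 captures (left) and 20 pools (right), on a colour scale from -1 to 1. Nearly all cells are red in captures (65 of 66 pairs above 0), while in pools 38 of 66 are above 0.

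Capture 11 carried a large share of this pattern. The summed level of the list was 24217 CPM there, against 11066 in the next capture, and it was the highest capture for 11 of the 12 abundant members, all but Pgam1, which was highest in capture 5. Without capture 11 the mean correlation was 0.319, and with TMM-scaled CPM it was 0.233, below the 0.269 of pools on that scale. Over all captures left out in turn it ran, unscaled, from 0.319 to 0.481. Within the runs of captures it was 0.151 before the ERCC run, 0.703 in it, where capture 11 lies, and 0.415 after it. In pools the corresponding means were 0.0243, 0.0353 and -0.0441. Without captures 4, 9 and 23 it was 0.479, and after removing the trend with the number of genes detected it was 0.401 in captures and 0.0671 in pools. The summed list ran from 3119 to 24217 CPM in captures, with a median of 6312 and a coefficient of variation of 52.7%, and from 6731 to 12016 in pools, with a median of 8241 and a coefficient of 18.2%. Without capture 11 the coefficient in captures was 28.4%. In unscaled CPM the median capture thus lay below the lowest pool, and the highest lay above every pool. In edgeR, with TMM scaling, the list did not lie lower: of 26 tested members 0 were called in either direction, 14 had a log2 fold change above 0, and the median was 0.05, against 0.03 over all genes.

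**Figure D5:**
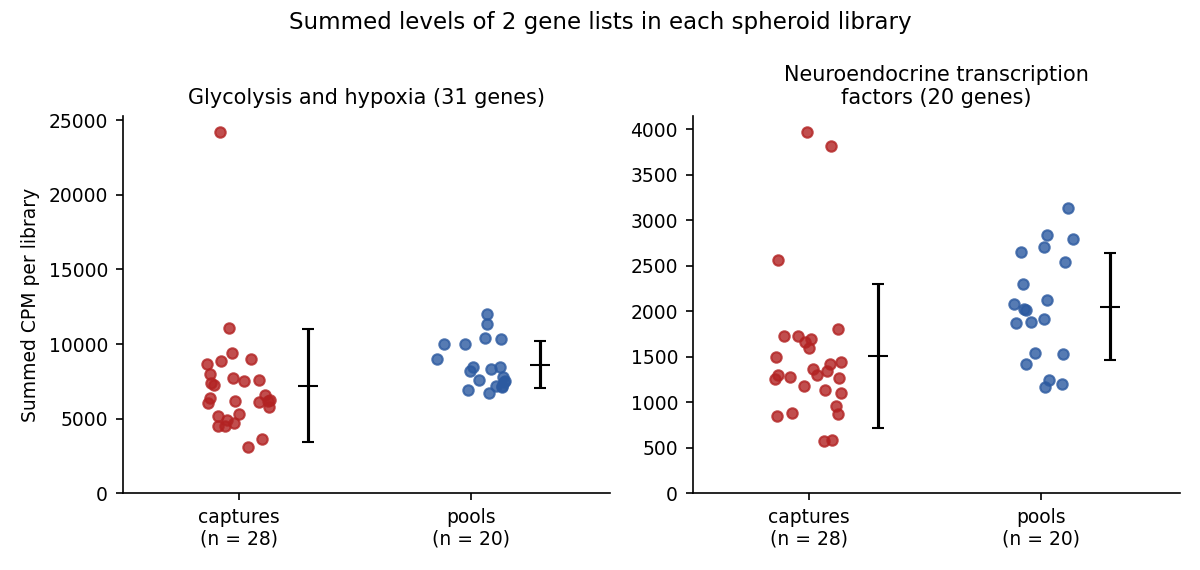
Summed CPM of 31 glycolysis and hypoxia genes (left) and of 20 neuroendocrine transcription factor genes (right) in each capture and pool, with the group mean and SD beside the points. On the left 1 capture lies at 24217 CPM and the others at or below 11066, while pools lie between 6731 and 12016; on the right 2 captures, at 3821 and 3973, lie above every pool.

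The promoters of 3 of these genes are printed because the members moved together across captures and the hypoxia response element has a known core, read here as ACGTG or GCGTG on either strand. RefSeq windows of 300 bases, from 250 before to 50 after a gene's start on GRCm38.p6, were matched for 11 of the 12 abundant members. Of these 11 genes, 9 held a core in at least 1 window and 13 of their 17 windows held one, beside 43.8% of all 32851 promoter windows (19.6% ACGTG, 32.4% GCGTG). Some windows of Aldoa overlap and share a core, as do some of Eno1, so single sites are counted more than once. No share per gene was computed over all promoters, so the 9 of 11 genes have no background beside them. Capitals mark the cores, and CACGTG holds ACGTG on both strands. The windows are chr4:119108495-119108794 on the plus strand for Slc2a1, chrX:106186850-106187149 on the plus strand for Pgk1 and chr7:46845554-46845853 on the plus strand for the first listed start of Ldha.
Slc2a1: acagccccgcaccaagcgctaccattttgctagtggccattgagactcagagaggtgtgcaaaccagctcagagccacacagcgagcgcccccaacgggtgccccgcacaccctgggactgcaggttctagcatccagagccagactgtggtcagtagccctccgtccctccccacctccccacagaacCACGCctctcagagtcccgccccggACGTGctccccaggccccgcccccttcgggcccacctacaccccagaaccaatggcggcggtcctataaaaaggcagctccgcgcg
Pgk1: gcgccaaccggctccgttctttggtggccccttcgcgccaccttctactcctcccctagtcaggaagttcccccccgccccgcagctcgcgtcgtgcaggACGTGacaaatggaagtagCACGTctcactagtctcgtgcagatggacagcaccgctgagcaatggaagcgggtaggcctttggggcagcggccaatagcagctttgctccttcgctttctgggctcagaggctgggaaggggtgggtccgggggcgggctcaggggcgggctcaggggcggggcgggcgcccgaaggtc
Ldha: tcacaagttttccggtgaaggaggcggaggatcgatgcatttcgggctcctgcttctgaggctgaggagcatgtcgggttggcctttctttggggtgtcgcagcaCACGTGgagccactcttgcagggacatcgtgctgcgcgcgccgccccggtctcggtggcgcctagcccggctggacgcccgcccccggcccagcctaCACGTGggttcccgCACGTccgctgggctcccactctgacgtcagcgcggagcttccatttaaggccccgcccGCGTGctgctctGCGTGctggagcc
The Slc2a1 window held 2 cores, the Pgk1 window 2 and the Ldha window 7, counting each strand. Such matches are letters in a window and were not compared with any binding data.

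Neuroendocrine transcription factor genes varied over a wider range in captures than in pools in their sum, with 2 captures at the top. The 20 listed genes summed to 576, 1321 and 3973 CPM in the lowest, median and highest capture and to 1162, 2019 and 3131 in pools, with coefficients of variation of 52.3% and 28.8%. The highest captures were 5 and 4, and both groups overlapped over most of the range. Without these 2 captures the highest was at 2567 CPM, below the highest pool, and the coefficient was 32.0%. Of 13 tested members, 11 (84.6%) spread more in captures, beside 58.8% of all genes, and 0 were called. Their median excess was 0.068 from the group median and 0.331 from the run median, beside 0.0611 and 0.137 over all genes tested, and from the run median the 13 tested members spread more in captures without exception, beside 68.0% of all genes. Nfib, a factor gene amplified in mouse small cell tumours, was at 138, 568 and 1577 CPM in captures and at 402, 740 and 1387 in pools, and its excess was 0.02, or 0.33 from the run median (adjusted p = 0.854 in limma). Over 7 abundant members the mean pairwise correlation was 0.272 in captures and 0.202 in pools, 0.267 and 0.0782 after centring on runs, and 0.118 and 0.117 after removing the trend with genes detected. Without capture 5 it was 0.189 in captures, and 0.193 after centring on runs. With TMM-scaled CPM it was 0.0990 and 0.0039.

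Mitosis genes covaried in both groups, and DNA replication genes little in either. Of 32 tested mitosis genes, 26 (81.3%) spread more in captures, beside 58.8% of all genes and 76.4% of abundant ones, with a median excess of 0.185 and 0 called. Their mean pairwise correlation over 20 abundant members was 0.224 in captures and 0.253 in pools. After centring on runs these were 0.213 and 0.0086, so that in pools the common movement of mitosis genes lay between the runs and in captures within them. With TMM-scaled CPM the means were 0.122 and 0.0907, and 0.105 and -0.0119 after centring. Over 13 abundant DNA replication genes the mean was 0.107 in captures and 0.0281 in pools, and 0.103 and -0.0098 after centring. Mki67 and Top2a, proliferation genes of dividing cells, had an r of 0.13 and 0.05, and the helicase genes Mcm5 and Mcm6 an r of -0.23 and 0.27, in captures and pools. Tpx2, which encodes a spindle assembly factor, was at 8.16, 167 and 531 CPM in captures and at 71.0, 218 and 475 in pools, with an unadjusted p of 0.0245 and an adjusted p of 0.821 in limma. Splicing factor genes were at 0.241 and 0.305 before centring and 0.219 and 0.087 after it, but with TMM-scaled CPM they were at 0.0795 and 0.0900 before and 0.0556 and 0.0594 after, with no gap between the groups. Other lists kept part of their correlation in pools: 77 ribosomal protein genes went from 0.293 and 0.271 to 0.323 and 0.179. Without capture 5 the ribosomal means in captures were 0.163 before centring, below the pools, and 0.176 after it. The 11 mitochondrially encoded genes went from 0.405 and 0.343 to 0.482 and 0.296, and without capture 4 the uncentred mean in captures was 0.323, below the pools. With TMM-scaled CPM the means before and after centring were 0.597 and 0.558, then 0.626 and 0.428, for ribosomal protein genes, and 0.424 and 0.197, then 0.509 and 0.355, for mitochondrially encoded genes. Cytosolic ribosomal protein genes share sequence with many pseudogenes, so their counts can be divided between copies.

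For 17 pairs of genes with a textbook relation, correlations over libraries were tested by permutation, with p-values adjusted over 34 tests. The 2 farthest libraries of a group were those farthest from its median for the gene named first in the pair. Leaving them out narrows the range of that gene, so a weaker r tends to follow from the choice. Cdk1 and Ccnb1, the kinase and cyclin that start mitosis, had an r of 0.75 and a rho of 0.70 in captures (permutation test, adjusted p = 0.000227 and 0.000793), and r was 0.56 without the 2 farthest captures and 0.76 after centring on runs. In pools r was 0.64 (permutation test, adjusted p = 0.0126), rho was 0.53 (adjusted p = 0.0838), and r was 0.50 without the 2 farthest pools (permutation test, adjusted p = 0.119) and 0.34 after centring on runs. The metallothionein genes Mt1 and Mt2, which lie next to each other and bind metal ions, had an r of 0.74 in captures and 0.85 in pools, both with an unadjusted permutation p of 1e-05, the smallest that 100000 resamples can give. Their rho was 0.80 in each group, r was 0.70 and 0.81 without the 2 farthest libraries, and centring on runs gave 0.69 and 0.55. Both pairs were therefore correlated in captures within runs as well as over them.

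Aldoa and Ldha, enzymes at 2 steps of glycolysis, had an r of 0.64 in captures (permutation test, adjusted p = 0.00245), a rho of 0.48 (adjusted p = 0.0579), and an r of 0.46 without the 2 farthest captures, where the call was lost (permutation test, adjusted p = 0.0973), and 0.72 after centring on runs. In pools their r was -0.19 (adjusted p = 0.647) and rho -0.13 (adjusted p = 0.715). The difference of 0.83 in r had an unadjusted permutation p of 0.0160 and an adjusted p of 0.272 over 17 pairs, so it did not pass. The mitochondrial genes mt-Nd1 and mt-Cytb had an r of 0.62 and a rho of 0.52 in captures (permutation test, adjusted p = 0.00245 and 0.0443), 0.50 without the 2 farthest captures, where the call was lost (permutation test, adjusted p = 0.0503), and 0.68 after centring. In pools their r was 0.54 (permutation test, adjusted p = 0.0495), rho was 0.38 (adjusted p = 0.275), and r was 0.34 without the 2 farthest pools and -0.04 after centring on runs.

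Of the remaining pairs with an adjusted p under 0.05 for r, those in captures were weaker without the farthest libraries, and the one in pools was not. The endoplasmic reticulum chaperone genes Hspa5 and Hsp90b1 had an r of 0.53 and a rho of 0.29 in captures (permutation test, adjusted p = 0.0304 and 0.336), and r was 0.03 without the 2 farthest captures. The mitochondrial pair mt-Co1 and mt-Nd4 had an r of 0.50 and a rho of 0.37 in captures (permutation test, adjusted p = 0.0304 and 0.199), 0.34 without the 2 farthest and 0.63 after centring. B2m and H2-K1, the chains of a major histocompatibility class I molecule, had an r of -0.57 and a rho of -0.52 in pools (permutation test, adjusted p = 0.0304 and 0.0861). Their r was -0.62 without the 2 farthest pools (permutation test, adjusted p = 0.0367) and -0.36 after centring on runs (permutation test, adjusted p = 0.358). In all, 6 pairs passed in captures and 4 in pools before centring on runs, and 6 and 0 after it. With TMM-scaled CPM 5 passed in captures and 3 in pools. On that scale Hspa5 with Hsp90b1 and mt-Co1 with mt-Nd4 lost their calls in captures (r = 0.44 and 0.30; permutation test, adjusted p = 0.0779 and 0.266), and Cdk1 with Ccnb1 and mt-Nd1 with mt-Cytb lost theirs in pools (r = 0.54 and 0.06; permutation test, adjusted p = 0.0561 and 0.881). The tubulin genes Tubb5 and Tuba1b passed with TMM scaling only, with an r of 0.59 in captures and 0.81 in pools (permutation test, adjusted p = 0.00606 and 0.00034), against 0.40 and 0.36 unscaled (adjusted p = 0.0971 and 0.229). Without the 2 farthest libraries their unscaled r was -0.02 in captures and 0.35 in pools. No difference in r between captures and pools passed over the 17 pairs.

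Over all pairs of the 1337 abundant genes the mean squared correlation, less what independent genes give at each group size, was 0.0335 in captures and 0.0303 in pools. The difference of 0.00317 was not larger than permuted group labels gave (two-sided permutation test, p = 0.733). Centred on ERCC sets the values were 0.0350 and 0.0147 (difference 0.0202, permutation p = 0.0202), and centred on runs 0.0369 and 0.0155 (difference 0.0214, permutation p = 0.0239). The capture value moved little with centring, and the pool value fell. When the trend with genes detected was removed as well as the run, the values were 0.0284 and 0.0295 (difference -0.00109, permutation p = 0.876). What was subtracted depended on group size only. Centring and trend removal leave fewer free values per gene, which raises the remainder for independent genes, more in pools than in captures. The values with run and trend both removed hold the most of this, so the sign of their difference is not read. Without captures 4, 9 and 23 and with no centring the difference was -0.00278 (permutation p = 0.772).

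The leading component of the abundant genes held 16.1% of the variance in captures and 20.5% in pools. In captures its score went with the number of genes detected (r = 0.80, rho = 0.60; permutation test, adjusted p = 3e-05 and 0.00279 over 12 relations) and against the ribosomal protein share (r = -0.81, rho = -0.88; adjusted p = 3e-05 and 6e-05), and r was 0.62 and -0.70 without the 2 farthest captures. It did not pass with the ERCC share (r = -0.13, rho = -0.35; adjusted p = 0.535 and 0.0933; r = -0.29 without the 2 farthest). The abundant genes include 77 ribosomal protein genes, and a larger ribosomal share lowers the CPM of all other genes. Part of the relation with that share is therefore built in. The farthest captures here were those farthest from the median of the library measure. The pools fell into separate clusters by ERCC set, so no pooled relation is given for them.

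Levels differed between captures and pools for few genes, and most of those were short, abundant transcripts. By edgeR's quasi-likelihood test 56 of 8420 genes were higher in captures (0.665%) and 4 were lower (0.0475%). With the run as a covariate 174 were higher (2.07%) and 8 lower (0.095%), and 55 of the 56 genes were among the 174, 98.2% of the first list and 31.6% of the second. The longest annotated transcript of the 56 genes had a median of 968.5 bases, against 3389 over all tested genes. Leaving out 1 library at a time gave 97 to 152 genes higher without captures 4, 5 or 21 or pools 9, 11 or 12, the most without capture 5, and 30 to 37 without captures 2, 13, 17 or 23 or pools 2, 3, 4, 6, 7, 8, 15, 19 or 20. The lower count was 2 without pool 17 and 7 to 17 without captures 4, 5, 6 or 21 or pools 9, 10, 11, 12 or 14. DESeq2 called 139 higher and 32 lower, and limma-voom 0 and 1, with 359 and 586 at an unadjusted p under 0.05.

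Genes of the ribosome and the respiratory chain made up much of the higher list. Of 80 tested cytosolic ribosomal protein genes 19 rose and 0 fell, with a median log2 fold change of 0.63 against 0.03 over all genes, and of 79 nuclear respiratory chain genes 11 rose and 0 fell, with a median of 0.51. Over all genes tested, 0.665% rose and 0.0475% fell. With the run as a covariate 52 of the 80 and 27 of the 79 were higher and 0 lower, at medians of 0.71 and 0.60, beside 2.07% higher and 0.095% lower over all genes. Both medians stayed above 0 under every scaling tried. Of 12 mitochondrially encoded genes 3 rose, and of 14 neuroendocrine transcription factor genes 0 were called, with a median of -0.20. The share of ribosomal protein counts was 26.4% ± 5.99 (SD, n = 10), 28.8% ± 4.16 (n = 9) and 24.4% ± 3.45 (n = 9) in the captures before, in and after the ERCC run, and 19.9% ± 1.84 (n = 8), 27.2% ± 1.33 (n = 6) and 18.0% ± 1.29 (n = 6) in pools. The gap between groups was thus narrow in the ERCC run and wide outside it, and but within single runs edgeR called 0 genes in either direction wherever it was run: at an unadjusted p under 0.05 there were 482 higher and 162 lower before the ERCC run, 260 and 209 in it, and 348 and 278 after it.

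Rps25, a protein gene of the small ribosomal subunit (chromosome 9, 44407139 to 44410427), was at 1379, 5479 and 8172 CPM in the lowest, median and highest capture and at 1834, 3082 and 4847 in pools. Above every pool lay 18 captures and below every pool 1. Its log2 fold change was 1.05 with an SE of 0.20 and an adjusted p of 0.00699 in edgeR. Eny2, a subunit gene of a chromatin and mRNA export complex (chromosome 15, 44428111 to 44437685), was at 145, 481 and 1348 CPM in captures and at 68.9, 293 and 434 in pools, a log2 fold change of 1.22 with an SE of 0.22 and an adjusted p of 0.00505 in edgeR. For Eny2 15 captures exceeded every pool and none lay beneath the lowest.

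The other genes named by the rule for higher levels had log2 fold changes of 1.04 to 1.22. Rpl39, a large ribosomal subunit gene, was at 531, 1851 and 3814 CPM in captures and at 380, 1085 and 1690 in pools. Cox7a2, a subunit gene of cytochrome c oxidase, was at 402, 1316 and 1895 CPM in captures and at 428, 802 and 1414 in pools. The mitochondrial complex I gene mt-Nd2 was at 260, 1165 and 3951 CPM and at 392, 817 and 1509, and Rps28 was at 44.6, 118 and 263 and at 19.4, 68.5 and 171. In each the groups overlapped, with 7 to 15 captures above every pool.

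Of the 4 lower genes 3 were scarce. The fourth, Ctps, which encodes a CTP synthase and lies outside the rule for named genes by its smaller change, was at 66.8, 286 and 1681 CPM in captures and at 201, 790 and 1592 in pools. Its log2 fold change was -0.94 with an SE of 0.20 and an adjusted p of 0.00957 in edgeR, and 6 captures lay below every pool. Tbpl1, a relative of the TATA-binding protein gene, was at 0, 3.21 and 53.03 CPM in captures and at 2.93, 32.7 and 337 in pools, a log2 fold change of -2.74 with an SE of 0.56 and an adjusted p of 0.00918 in edgeR. In 13 captures Tbpl1 lay below every pool. Pus10, a pseudouridine synthase gene, and C2cd5, a membrane trafficking gene, had log2 fold changes of -2.64 and -2.85 and medians of 1.93 and 1.56 CPM in captures against 17.5 and 4.86 in pools. Their groups overlapped, with 3 captures each below every pool. Both calls rested on pool 17: without it the log2 fold changes were -2.19 for Pus10 and -1.90 for C2cd5 (adjusted p = 0.0712 and 0.145 in edgeR), and C2cd5 reached 248 CPM in its highest pool. Without pool 3 the adjusted p for C2cd5 was 0.0555 in edgeR.

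The ERCC sets differed in many genes among pools and in few among captures. In pools edgeR called 222 of 9291 genes higher in the 6 libraries with ERCC counts (2.39%) and 111 lower (1.19%). In captures it called 1 of 8523 genes higher in the 9 libraries with ERCC counts (0.0117%) and 2 lower (0.0235%), with 319 and 339 at an unadjusted p under 0.05. The difference between the groups was tested as an interaction over 10787 genes, and edgeR called 0 above 0 (0.0%) and 0 below 0 (0.0%), with 536 and 699 at an unadjusted p under 0.05. No other tool was run for the interaction. DESeq2 called 7 genes higher and 57 lower in captures, and 317 and 574 in pools. Leaving out 1 pool at a time gave 184 to 247 genes higher and 55 to 118 lower, with 73, 55, 63 and 58 lower without pools 10, 11, 12 and 14. So it is not shown that the sets differed by different amounts in pools and captures.

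Among the 222 genes that were higher in ERCC pools, 217 were tested in captures, and 203 of them had a log2 fold change above 0 there (93.5%, against 48.9% of all genes tested in captures), with a median of 0.43 against 1.11 in pools. Of the 111 lower genes 92 were tested in captures and 74 lay below 0 (80.4%, against 51.1% of all genes), with a median of -0.59 against -4.12 in pools. The captures and the pools share no libraries. The pool values chose the genes, so their size in pools is not compared with that in captures. Against the earlier pools 216 genes were higher and 50 lower in the ERCC run, and against the later pools 142 and 56, with 124 of the higher genes shared (57.4% and 87.3% of the lists) and 13 of the lower. The later pools differed from the earlier ones in 14 higher and 15 lower genes.

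Ribosomal protein genes led the higher set in pools: 58 of 80 rose and 1 fell with ERCC counts, beside 2.39% and 1.19% of all genes tested, at a median log2 fold change of 0.93, while in captures none was called and the median was 0.35. Rpl32, for a large subunit protein, was at 3841, 5320 and 5475 CPM in the lowest, median and highest ERCC pool, at 2022, 2664 and 3185 in earlier pools and at 1482, 1888 and 2346 in later ones. The ERCC pools did not overlap the others, and the log2 fold change was 1.56 with an adjusted p of 5.68e-08 in edgeR. Of the 56 genes that were higher in captures than in pools, 30 were among the 222 (53.6% and 13.5% of the lists) and 0 among the 111. These comparisons share the pool libraries. The 222 genes had a median longest transcript of 1130 bases against 3414.5 over all tested genes, and the 111 lower genes one of 2936 bases. Nuclear respiratory chain genes followed, with 27 of 79 higher and 1 lower in ERCC pools and a median of 0.63, and splicing factor genes lay the other way, with 0 of 30 higher, 5 lower and a median of -0.44.

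Gapdh, often used as a reference gene, was at 3017, 3177 and 3292 CPM in ERCC pools, at 1123, 1753 and 2110 in earlier pools and at 1244, 1466 and 1973 in later ones. No ERCC pool overlapped another pool, and the log2 fold change was 1.40 with an SE of 0.13 and an adjusted p of 2.45e-08 in edgeR. In captures Gapdh was at 1148, 2233 and 4662 CPM with ERCC counts, at 1107, 1805 and 2152 before and 923, 1453 and 2831 after, and the log2 fold change of 0.84 had an adjusted p of 0.245 in edgeR. The sets of captures overlapped over most of their range.

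A few abundant genes of other kinds had lower levels in ERCC pools than in any other pool, and lower medians in ERCC captures. mt-Co2, which encodes a core subunit of cytochrome c oxidase, was at 1389, 2074 and 2943 CPM in ERCC pools, at 5390, 6691 and 8862 in earlier pools and at 9743, 10510 and 13742 in later ones. In captures it was at 2215, 2970 and 6935 CPM with ERCC counts, at 3067, 8562 and 12968 before and at 8359, 12056 and 13681 after. The log2 fold change was -1.65 in pools and -1.31 in captures, with adjusted p-values of 3.24e-05 and 0.0463 in edgeR. The ERCC captures overlapped the earlier captures and not the later ones. The call for mt-Co2 held in 20 of 20 fits with 1 pool left out, and in 9 of 28 with 1 capture left out, where the adjusted p reached 0.269.

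Rbbp7, a histone-binding protein gene, was the other gene called lower in captures, and that call held in 7 of 28 fits with 1 capture left out (highest adjusted p = 0.269 in edgeR). It was at 12.6, 50.4 and 124 CPM in ERCC pools, at 139, 255 and 357 in earlier pools and at 151, 432 and 612 in later ones. In captures it was at 20.8, 47.4 and 99.6 CPM with ERCC counts, at 92.6, 152 and 280 before and at 104, 291 and 350 after. Its log2 fold change was -2.02 in pools and -1.70 in captures (edgeR, adjusted p = 0.00246 and 0.0463), and only in captures before the ERCC run did the ranges touch.

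Npm1, a nucleolar chaperone gene, was at 110, 142 and 237 CPM in ERCC pools, at 512, 654 and 942 in earlier and at 414, 836 and 1089 in later pools, a log2 fold change of -1.80 with an adjusted p of 1.13e-05 in edgeR. In captures it was at 46.2, 167 and 411 CPM with ERCC counts, at 196, 421 and 1115 before and at 326, 706 and 946 after, a log2 fold change of -1.31 with an adjusted p of 0.178 in edgeR. The pools did not overlap between sets and the captures did. Foxj3, Btf3 and H3f3a, for a transcription factor, a nascent chain binding factor and a histone H3 variant, had log2 fold changes of -2.12, -3.24 and -1.63 in pools. Mical2, an actin oxidation enzyme gene, was the only gene called higher in captures with ERCC counts, at 0.795, 6.40 and 266 CPM against highest values of 5.99 before and 7.34 after, so the sets overlapped. Leaving out 1 capture at a time gave 0 to 1 genes higher and 0 to 3 lower, and 23 of the 28 left-out captures took the lower count to 0 or 1.

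No difference in the spread of the spike-in transcripts was detectable between the groups. Over 31 ERCC transcripts with a mean of at least 10 counts, the mean absolute log2 deviation from the group median was 2.30 ± 0.74 (SD, n = 9) in captures and 2.17 ± 0.64 (n = 6) in pools, a difference of 0.138 (exact permutation test, two-sided, p = 0.712). ERCC totals were 7590 to 62555 counts in captures and 52165 to 88566 in pools, and after thinning to the lowest of them the difference over 20 transcripts turned to -0.284 (exact permutation test, p = 0.412). Each ERCC library held 19 to 33 detected ERCC transcripts in captures and 25 to 35 in pools. Genes detected at a common depth were 9491 ± 116 (SD, n = 6) in pools with ERCC counts and 10363 ± 794 (n = 14) without, with an exact permutation p of 0.0185 and an adjusted p of 0.111 over 6 measures. The pools without them were at 10911 ± 475 (n = 8) before the ERCC run and 9633 ± 453 (n = 6) after it, so the gap lay with the earlier pools. Neither the gene total nor the similarity of a library to its group passed for either group. The median rank correlation of a pool with the other pools of its run was on average 0.670 before the ERCC run, 0.584 in it and 0.550 after it, and that of a capture 0.582, 0.575 and 0.586.

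The excess of spread in captures was set beside that in liver colonies of the same line and genotype, with 33 captures and 35 pools labelled nude and 31 captures and 24 pools labelled F1, taken by the same method. Against the F1 livers the excess was larger in spheroids for 34 of 8932 genes (0.381%) and smaller for 11 (0.123%) by limma, of which 1, Mup7, was at 0 in every spheroid library and entered the test through the livers alone. Against the nude livers limma called 0 of 9423 genes larger (0.0%) and 0 smaller (0.0%), with 739 and 414 at an unadjusted p under 0.05, and no other tool was run. Among the genes with a larger excess than in F1 livers were Bex3, an adaptor protein gene, and Tmed10, a vesicle cargo receptor gene, with differences of 2.10 and 2.34.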

How the data were processed

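RNA of 48 KP1 spheroid libraries was analysed from the compiled table the authors deposited, which holds expected counts per gene (31581 genes and 92 ERCC transcripts). Per the submitters' processing notes the tools were RSEM and Bowtie2 and the builds GRCm38 and GRCh38.p12, with no versions; gene coordinates matched GENCODE M21 for 92.6% of gene IDs. All columns were mapped to samples by name (0 unmapped). Libraries were assigned to groups by their labels; this comparison, its gene lists and its tests were chosen with earlier results of these data known.

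Expected counts were rounded for edgeR 4.0.16 (quasi-likelihood test, TMM scaling, filterByExpr) and DESeq2 1.42.0, in R 4.3.3. CPM were computed from gene counts without ERCC. Spread was tested with limma 3.58.1 on scaled absolute deviations of log2(CPM + 1) for genes averaging 5 CPM or more. Adjusted p-values are Benjamini-Hochberg values over all genes tested, with a threshold of 0.05. Scripts were tested on simulated data. Permutation tests were two-sided (Python 3.11.15, scipy 1.17.1). They were exact within single runs, for ERCC transcripts and between ERCC sets. The others used 100000 resamples, or 10000 for covariation with 1 library left out. An ERCC set was defined as at least 0.1% ERCC counts. Named genes were those called with the smallest adjusted p (for level, also a log2 change of 1 or more and 10 CPM); others are said to be chosen after their values were seen, or belong to a list. Alternatives covered scaling, filters, pseudocounts, tools, runs and left-out libraries. PCR reads carry no molecular identifiers, so counts are not molecules.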

Additional observations from a re-analysis of the deposited data

Results flagged for a closer look

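Between spheroids and F1 livers the excess of spread in captures over pools differed by limma's interaction test, with 34 genes larger and 11 smaller in spheroids. The genes with the smallest adjusted p and a larger excess in spheroids were Bex3 (difference 2.10), Prpsap1 (2.27), Tmed10 (2.34) and Atp6v0b (1.86). Their excess in F1 livers was below 0, at -1.80, -1.66, -1.36 and -1.65, so pools spread more than captures there. The genes with a smaller excess were Mup7 (-2.58), Apool (-2.09), Hibadh (-1.87) and Mgme1 (-1.88), but Mup7, a urinary protein gene of hepatocytes, was listed at 0 in every spheroid library. It passed the filter through the livers alone, so its difference was fixed by its spread there and shows nothing of spheroids; the other 10 had a mean of at least 5 CPM in spheroids, as had the 34. No test of these genes was made in other libraries.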

How the results depend on the processing

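Spread per gene stayed at 0 genes with larger spread in captures under every alternative but the group mean (11) and the run before ERCC alone (1). Smaller spread was called for 14 genes from the group mean, 1 from the run median, 2 in ERCC libraries alone and 3 in the run after ERCC, and for 0 to 1 with 1 library left out (1 without capture 15). The excess over abundant genes per library was 0.190 from the run median, 0.108 from the run median without captures 4, 9 and 23, and 0.330 in the first run, all past the threshold that the 0.137 missed, 0.0983 to 0.150 with 1 library left out, and -0.0306 in the last run without capture 23. The difference in covariation was 0.0202 centred on ERCC sets and 0.0214 centred on runs, past the threshold, and turned to -0.00569 at 200 CPM, -0.00530 with Spearman correlations, -0.00264 with TMM scaling, -0.00594 as residuals on genes detected, -0.00109 with runs as well and -0.00278 without captures 4, 9 and 23; with 1 library left out it ran from -0.00158 to 0.00498. The ERCC transcript spread difference turned to -0.284 after thinning to the lowest ERCC total and was 0.0941 to 0.467 with 1 library left out. The cause was not tested for any of these. For covariation with runs and genes detected both removed, the sign is not read, because the subtraction used group size only.

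Genes higher and lower in captures numbered 139 and 32 with DESeq2, 163 and 10 with the ERCC set as covariate, 174 and 8 with the run, 0 and 1 with limma-voom, 1111 and 906 with no filter, 125 and 10 without ERCC libraries, and 0 and 0 in the ERCC libraries, the first run or the last run alone. TMMwsp scaling gave 126 higher, RLE scaling 7 lower and a minimum of 5 CPM 12 lower. With 1 library left out there were 30 to 152 and 2 to 17. Over all genes the median change was 0.03 with TMM and -0.17 with limma-voom, on the log2 scale. For ERCC sets in captures, the counts higher and lower were 0 and 0 at a 0.01% threshold, 27 and 0 at 1%, 7 and 57 with DESeq2, 370 and 29 with no filter, 0 and 0 against the first run and 0 and 7 against the last, and 0 to 1 and 0 to 3 with 1 library left out. In pools they were 134 and 15 at 0.01%, 489 higher with no filter, 574 lower with DESeq2, 50 lower against the first run and 142 and 56 against the last, and 184 to 247 and 55 to 118 with 1 library left out. The difference between groups had 1 gene above 0 at 0.01%.

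Against F1 livers the larger and smaller counts were 112 and 6 at 25 CPM and 13 and 4 with a pseudocount of 5, and 66 were larger with TMM scaling. Against nude livers 1 was larger with TMM scaling, and 1 was larger and 1 smaller with the pseudocount of 5. Without the 2 farthest libraries 3 pairs passed in captures and 2 in pools. In pools 1 passed without ERCC libraries and 0 after centring on runs, and mt-Nd1 with mt-Cytb turned to -0.102 and -0.0357.

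Captures and pools numbered 1 to 20 share numbers only: same-number deviations correlated at -0.045 to 0.111, 1 of 20 over 0.1, and 1 capture correlated best with its own number. With the number as a block, 46 genes were higher and 2 lower, against 73 and 8 without the block in those libraries, and 0 differed in spread. At 10 cells a library, the median deviation of genes at 5 to 10 CPM was above 1 in pools as in captures, which limits what the spread of low genes can show.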
